A study of Mus musculus with 5 samples.

Results

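The RNA of 10 p53 target genes other than Cdkn1a was followed in uteri of young mice with and without Dicer, which releases mature microRNAs from their precursors. The members were Mdm2, Ccng1, Gtse1, Perp, Fas, Gadd45a, Btg2, Plk2, Sesn2 and Zmat3, taken as every array probe listed under those names, written there as MDM2, CCNG1, GTSE1, PERP, FAS, GADD45A, BTG2, PLK2 and SESN2, with Zmat3 under its older name WIG1. All 10 genes were on the array, through 21 of its 45281 probes, and 8 of them, with 15 probes, were measured above background on at least 2 arrays. The question was whether a p53 response accompanies the loss of Dicer.

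The samples were total RNA from whole uteri taken at the age of 15 days from mice of mixed C57BL/6J and 129S5/Brd descent. There were 3 pools of control uteri, labelled wild type (pools 7, 9 and 11), and 2 pools of uteri with a Cre knockout of Dicer (Dicer cKO, pools 10 and 12), each read on 1 Illumina bead array. Cre was expressed from the progesterone receptor gene, so Dicer was deleted only in cells that had expressed that receptor, and each array read a mixture of deleted and undeleted cells. The labels do not say how many uteri made up a pool, or whether controls carried Cre or floxed Dicer alleles, so an effect of the Cre insertion and an effect of Dicer loss cannot be told apart.

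The p53 protein is a transcription factor that accumulates after DNA damage and other stress and switches on genes that halt the cell cycle, repair DNA, limit growth or kill the cell. One of its targets, Mdm2, marks p53 itself for degradation, so a rise of Mdm2 RNA is a usual sign that p53 is active. Many p53 targets also answer to other regulators: Gadd45a, Btg2 and Plk2 respond to growth factors and stress kinases, Sesn2 to the stress factor ATF4, and Gtse1 is made mainly by dividing cells.

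The p53 protein binds DNA through pairs of a 10-base motif, called half-sites, whose consensus is its own reverse complement, so that a search covers both strands. Promoter windows from RefSeq (assembly GRCm38.p6), reaching from 250 bases before to 50 bases after a transcript start, were at hand for 8 of the 10 members in 9 windows. A half-site stood in the window of 4 members, both members called in the test (Gtse1 and Gadd45a) and 2 that were not (Mdm2 and Ccng1), while a full site, meaning 2 half-sites at most 13 bases apart, stood in none. Of all 32851 windows of this length, 8.36% held a half-site and 0.0731% a full site. Bases outside the windows, introns among them, were not searched. A member without a full site here may therefore hold one elsewhere. The sites found are printed on the strand of the gene with their neighbouring bases, beside a pair of matches found for Cdkn1a. Capitals mark exact matches to the half-site consensus only, so a half-site with a mismatch stays in lower case.
Mdm2: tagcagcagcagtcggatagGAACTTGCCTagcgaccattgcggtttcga
Ccng1: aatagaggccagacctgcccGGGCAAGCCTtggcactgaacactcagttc
Gadd45a: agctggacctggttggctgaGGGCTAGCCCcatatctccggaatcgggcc
Gtse1: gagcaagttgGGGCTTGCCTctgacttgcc
Cdkn1a: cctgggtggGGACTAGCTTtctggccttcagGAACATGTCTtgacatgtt

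The Mdm2 stretch lies at chr10:117710915-117710964 on the minus strand, with its half-site 186 bases before the start. The Ccng1 stretch lies at chr11:40755442-40755491 (minus strand, 185 bases before the start) and the Gadd45a stretch at chr6:67037418-67037467 (minus strand, 40 bases before). The Gtse1 stretch, at chr15:85859945-85859974 on the plus strand, spans one of its annotated starts, and its half-site begins 9 bases after that start. The Cdkn1a stretch lies at chr17:29090897-29090946 on the plus strand and holds 2 exact matches with 12 bases between them. An imperfect half-site directly beside a match would not be marked, and which pair p53 binds was not tested. The first lies 73 bases before one of its annotated starts, and the window of another Cdkn1a start held 0 half-sites. A match of letters is a description and does not show that p53 binds there.

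Signals are log2 values after background correction and quantile normalization, and a gene with several probes is given by its brightest probe. Differences are Dicer cKO minus control with the standard error (SE) of limma, and a gene is called where its limma p, adjusted by Benjamini-Hochberg over all 15733 genes tested, lies under 0.05. Between 47.0% and 49.5% of probes were detected per array, with Dicer cKO pool 10 at the low end. Across all genes tested, 6.74% were called (438 higher and 623 lower), 2.78% higher and 3.96% lower, and 37.6% had both Dicer cKO pools on one side of all control pools (19.9% above and 17.6% below). At an unadjusted p under 0.05 the share was 20.8%, and of all 22845 single probes kept 5.87% were called. These counts rest on single pools. There were 86 genes higher and 189 lower with Dicer cKO pool 10 left out, 219 and 387 with control pool 7 left out, and 229 and 415 with control pool 9 left out. Dicer1 itself read 9.15, 9.08 and 9.12 in control pools 7, 9 and 11, against 8.62 and 8.75 in Dicer cKO pools 10 and 12, a fall of 0.43 ± 0.09 (SE; limma adjusted p = 0.0224). A dimmer probe of Dicer1 differed by -0.22 ± 0.13 and was not called (limma adjusted p = 0.392). The call on the brighter probe was lost in 7 of 14 alternatives, among them leaving out control pool 7 (limma adjusted p = 0.0729), 9 (0.0691) or 11 (0.0574) or Dicer cKO pool 10 (0.18), in a range from 0.0185 to 0.18. The labels do not place either probe relative to the deleted part, so Dicer1 is a weak check of them. Pgr, the progesterone receptor gene from which Cre was expressed, read 8.31, 8.72 and 8.56 in the controls, against 7.65 and 7.88 in Dicer cKO pools. Both Dicer cKO pools lay below all controls, by -0.77 ± 0.14 (limma adjusted p = 0.00896), a call that did not hold with Dicer cKO pool 10 left out (0.113). Its part in the members' values was not tested. Uterine cell types were present by their markers, with 13 of 13 stromal, 8 of 8 smooth muscle and 12 of 14 epithelial markers measured, Epcam and Ehf being below detection on every array.

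The p53 targets did not move together. Of the 8 members measured, Gtse1 rose, Gadd45a fell, and Mdm2, Ccng1, Plk2, Sesn2, Fas and Zmat3 were not called. The 2 called members, 25% of those tested against 6.74% of all genes, went in opposite directions. The 3 members whose groups did not overlap, Gtse1, Zmat3 and Gadd45a (the first pair higher, the last lower), were 37.5% of those tested, near the 37.6% over all genes. An unadjusted p under 0.05 was reached by the same 3 members, 37.5% of those tested against 20.8% of all genes. The median difference over the 8 members was -0.02, beside 0.01 over all genes. Each of the 8 was detected on all 5 arrays, so none entered the test through 1 group alone.

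**Figure D1:**
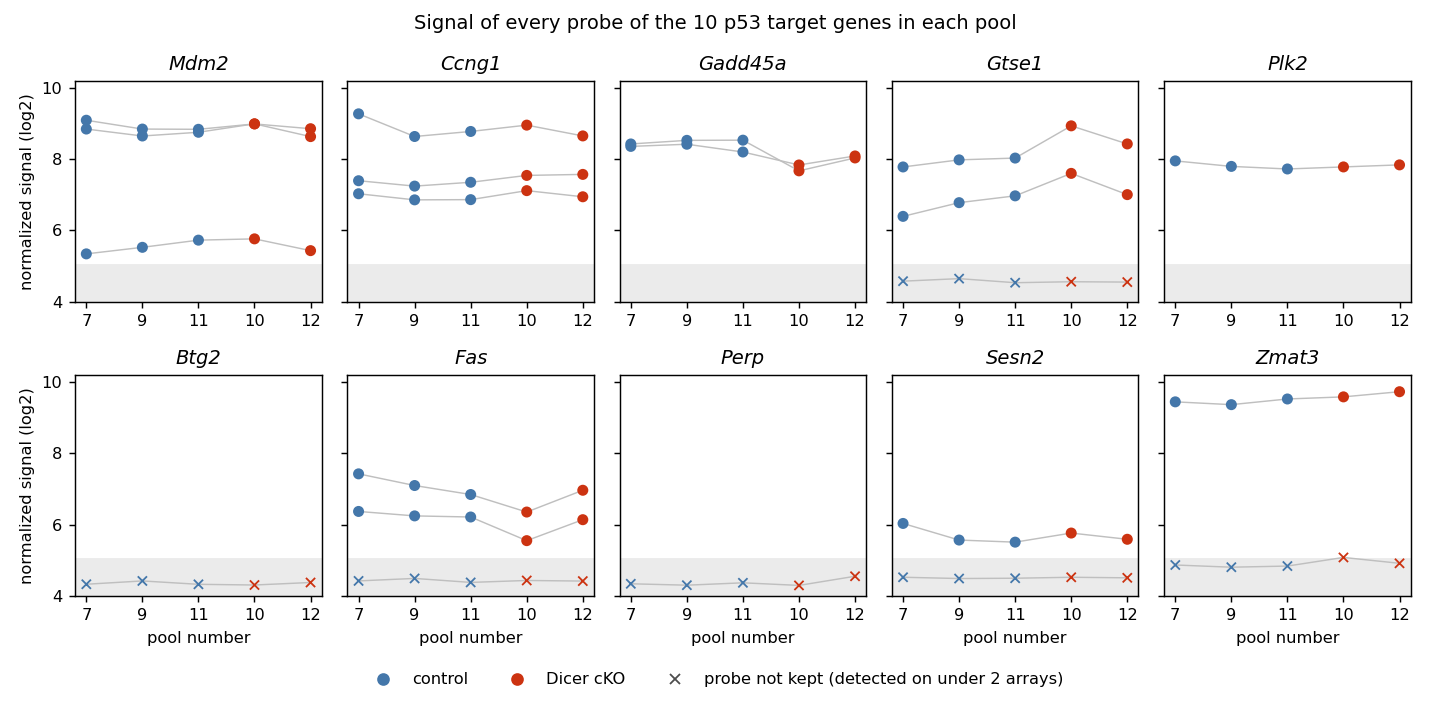
Log2 normalized signal (vertical axis) of every probe of the 10 genes in control pools 7, 9 and 11 (blue) and Dicer cKO pools 10 and 12 (red); grey lines join the values of 1 probe, crosses are probes detected on under 2 arrays, and the grey band reaches up to the highest of the 5 lowest detected signals. Gtse1 is higher and Gadd45a lower in both Dicer cKO pools, with pool 10 farther from the controls than pool 12, while Btg2 and Perp lie within the band in every pool.

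The feedback genes of p53 stayed near their control signals. Mdm2, the ubiquitin ligase that removes p53, read 9.10, 8.85 and 8.84 in control pools 7, 9 and 11, against 8.99 and 8.86 in Dicer cKO pools 10 and 12. Both Dicer cKO values lay within the range of the controls, but only control pool 7 was above them, with control pools 9 and 11 below both. The difference was 0.00 ± 0.11 (SE; limma adjusted p = 0.992), with a 95% interval from -0.25 to 0.24. The other probes of Mdm2 differed by 0.06 ± 0.12 and 0.07 ± 0.17 and were not called either. Ccng1, which encodes cyclin G1, a partner of the phosphatase PP2A that acts on Mdm2, read 9.28, 8.64 and 8.78 in the controls, against 8.96 and 8.66 in Dicer cKO pools. The groups overlapped, with control pool 7 highest, and the difference was -0.09 ± 0.18 (limma adjusted p = 0.829; 95% interval from -0.48 to 0.30). Its dimmer probes pointed the other way, by 0.23 ± 0.11 and 0.11 ± 0.13, and were not called. On the first of them both Dicer cKO pools, at 7.55 and 7.58, lay above all controls.

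Trp53, the gene of p53 itself, read 9.86, 9.90 and 10.02 in the controls, against 10.08 and 10.07 with Dicer deleted. The Dicer cKO values lay just above the highest control, and the difference of 0.15 ± 0.08 was not called (limma adjusted p = 0.371). Among 25 regulators of p53, 23 were measured, and 0 were called higher and 1 lower by limma. At an unadjusted p under 0.05, reached by 20.8% of all genes, there were 2 higher and 2 lower. The median of the 23 was 0.08, and 4.35% were called, against 6.74% of all genes. The regulator called lower was Ppp1r13b, which encodes ASPP1, a protein that steers p53 towards its death genes, at -0.52 ± 0.10 (limma adjusted p = 0.0110). Its other measured probes differed by -0.09 and -0.44 and were not called, and its call did not survive leaving out Dicer cKO pool 10 (limma adjusted p = 0.109) or taking the mean of its probes (0.137), in a range from 0.00837 to 0.137 over 14 alternatives.

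Genes of growth arrest differed from each other. Gadd45a, whose protein binds cell cycle and stress kinases and helps to halt cells before mitosis, read 8.43, 8.53 and 8.54 in control pools 7, 9 and 11, against 7.68 and 8.04 in Dicer cKO pools 10 and 12. Both Dicer cKO pools lay below all controls, and pool 10 was the lower. The fall of 0.64 ± 0.12 (SE; limma adjusted p = 0.0139), was a 1.56-fold difference. As background, p53 is known to raise this gene. A second probe read 8.36, 8.42 and 8.20 in controls, against 7.84 and 8.09 in Dicer cKO pools. It too had both Dicer cKO pools below the controls, by -0.36 ± 0.12, but was not called (limma adjusted p = 0.117). Gadd45a was no longer called with Dicer cKO pool 10 left out (-0.46, limma adjusted p = 0.127), with control pool 9 left out (-0.63, 0.0517), or with control pool 11 left out (-0.43, 0.102), where the second probe became the brighter and stood in for the first. Over 14 alternatives its adjusted p ran from 0.009 to 0.127.

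Plk2, a polo-like kinase of centriole duplication, read 7.96, 7.80 and 7.73 in controls, against 7.79 and 7.84 in Dicer cKO pools. The groups overlapped fully, with a difference of -0.01 ± 0.11 (limma adjusted p = 0.967; 95% interval from -0.27 to 0.24). Btg2, an antiproliferative gene that promotes mRNA decay, has 1 probe, which was not detected on any array, with signals from 4.30 to 4.41 in the 5 pools. Its level, and any difference, lay below what the array could show.

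Gadd45a, Btg2 and Plk2 are also induced as early response genes, so the immediate early genes were set beside them. Of 23 on the list, 18 were measured, with Fosl2 called higher (0.42 ± 0.10) and Ier3 lower (-0.58 ± 0.12). The called share was 11.1%, against 6.74% of all genes, and the median of the list was -0.20. Relative to the control mean, the median of the list was -0.31 in Dicer cKO pool 10 and 0.00 in Dicer cKO pool 12. Its part in the values of Gadd45a was not tested. The call of Fosl2 was lost in 8 of 14 alternatives and that of Ier3 in 3.

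Gtse1 was the member that rose. Its protein travels on growing microtubules in mitosis and carries p53 out of the nucleus in cells recovering from arrest. The brightest probe read 7.78, 7.98 and 8.03 in control pools 7, 9 and 11, against 8.94 and 8.43 in Dicer cKO pools 10 and 12. Both Dicer cKO pools lay above all controls, and pool 10 was farther from them than pool 12. The rise was 0.75 ± 0.15 (SE; limma adjusted p = 0.0173), a 1.68-fold difference. A second probe read 6.40, 6.78 and 6.97 in controls, against 7.60 and 7.01 in Dicer cKO pools, where pool 12 was barely above the highest control. It differed by 0.59 ± 0.20 and was not called (limma adjusted p = 0.138), and the third probe was not detected on any array. Gtse1 was no longer called with Dicer cKO pool 10 left out (0.50, limma adjusted p = 0.172), with control pool 7 left out (0.68, 0.0615) or with the mean of its probes (0.67, 0.0557). Over 14 alternatives its adjusted p ran from 0.00725 to 0.172.

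A list of cell division genes lay on the same side as Gtse1. Of 37 on the list, 31 were measured, and the difference was above 0 for each of the 31, with 9 called higher (29%), 0 called lower and a median of 0.44. Over all genes tested, 53% had a difference above 0, 2.78% were called higher and the median was 0.01. Ccne1, a cyclin of entry into S phase, stood at 1.16 ± 0.18, the replication licensing gene Mcm5 at 0.69 ± 0.16, the mitotic kinase gene Aurka at 0.67 ± 0.13 and Ccne2 at 0.65 ± 0.16. Their count rests on single pools: leaving out Dicer cKO pool 10 gave 0 called higher, control pool 7 gave 2, control pool 9 gave 4 and Dicer cKO pool 12 gave 19. Relative to the control mean, the median of the list was -0.17, 0.01 and 0.14 in control pools 7, 9 and 11, 0.66 in Dicer cKO pool 10 and 0.25 in Dicer cKO pool 12. The pools stood in the same order for Gtse1 as for this median, which describes 5 pools and was not tested.

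**Figure D2:**
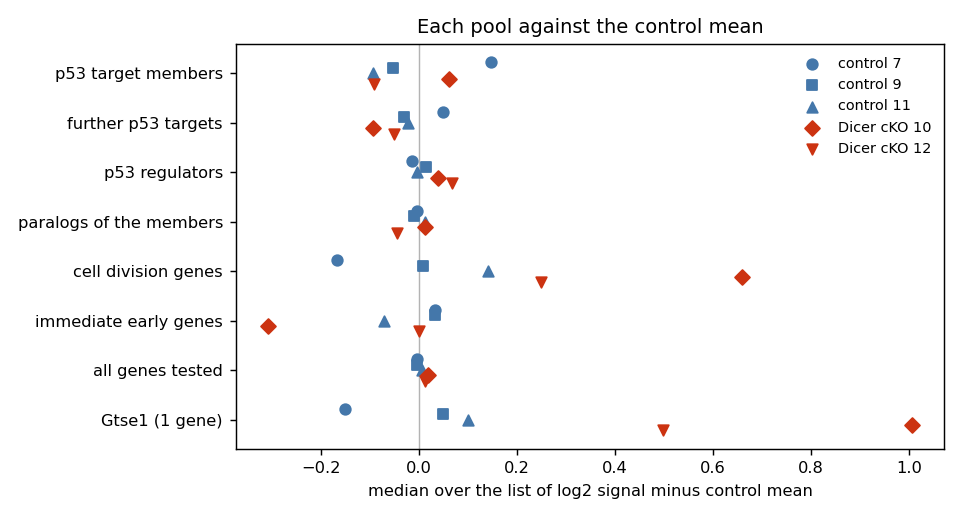
Median over the genes of each list of the log2 signal minus the gene's control mean (horizontal axis), for each of the 5 pools, with the single gene Gtse1 in the last line. Cell division genes and Gtse1 are highest in Dicer cKO pool 10, then Dicer cKO pool 12. The p53 target members run from -0.09 to 0.15, highest in control pool 7, and further p53 targets from -0.09 to 0.05.

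The death receptor gene Fas was not called, and its Dicer cKO pools differed from each other. It read 7.42, 7.10 and 6.84 in control pools 7, 9 and 11, 6.35 in Dicer cKO pool 10 and 6.96 in Dicer cKO pool 12. Pool 10 lay below all controls, while pool 12 lay among them. The difference of -0.46 ± 0.21 was not called (limma adjusted p = 0.245; 95% interval from -0.93 to 0.00), and it was -0.16 with pool 10 left out and -0.78 with pool 12 left out. A second probe had both Dicer cKO pools below the controls, at 5.55 in pool 10 and 6.14 in pool 12 against 6.21 to 6.37, and was not called (-0.43 ± 0.18, limma adjusted p = 0.205). The third probe, and a further probe listed under the older name Tnfrsf6, were not detected on any array. 

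Perp, a membrane protein gene that serves both p53-dependent death and the desmosomes of stratified epithelium, has 1 probe, which was not detected in any pool, with signals from 4.29 to 4.55. Desmosome and stratified epithelium genes were measured more widely. Of 16, 10 were tested, with Krt17, a keratin of stressed and basal epithelium, at 2.60 ± 0.12 and called higher, and the plakin genes Ppl (-0.79 ± 0.19) and Evpl (-0.46 ± 0.11) called lower. The median was -0.15, and 30% of those tested were called, against 6.74% of all genes. The call of Ppl was lost in 6 of 14 alternatives and that of Evpl in 7. Trp63, the p53 relative that drives Perp in stratified epithelium, differed by -0.39 ± 0.15 and was not called (limma adjusted p = 0.170).

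Sesn2, which restrains the growth kinase mTORC1 and limits oxidative damage, was dim but above background on every array. It read 6.03, 5.56 and 5.50 in controls, against 5.76 and 5.59 in Dicer cKO pools. Both Dicer cKO values lay inside the control range, but only control pool 7 was above them, with control pools 9 and 11 below both. The difference was -0.03 ± 0.18 (limma adjusted p = 0.958, 95% interval from -0.42 to 0.37). Among 18 targets of the stress factor ATF4, which also drives Sesn2, 16 were measured, with a median of 0.14. Of these, 12.5% were called, against 6.74% of all genes. Psat1, an enzyme of serine synthesis, was called higher (0.93 ± 0.09) and the cystine transporter gene Slc7a11 lower (-1.20 ± 0.26, a call lost in 6 of 14 alternatives).

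Zmat3, a zinc finger protein gene that binds RNA, read 9.45, 9.37 and 9.53 in controls, against 9.59 and 9.73 in Dicer cKO pools. Both Dicer cKO pools lay above the controls, by a small margin for pool 10, and the difference of 0.21 ± 0.09 was not called (limma adjusted p = 0.231; 95% interval from 0.01 to 0.42). It kept its sign in each of 14 alternatives, from 0.14 to 0.29, without a call. A second probe was detected in Dicer cKO pool 10 only and was left out.

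**Figure D3:**
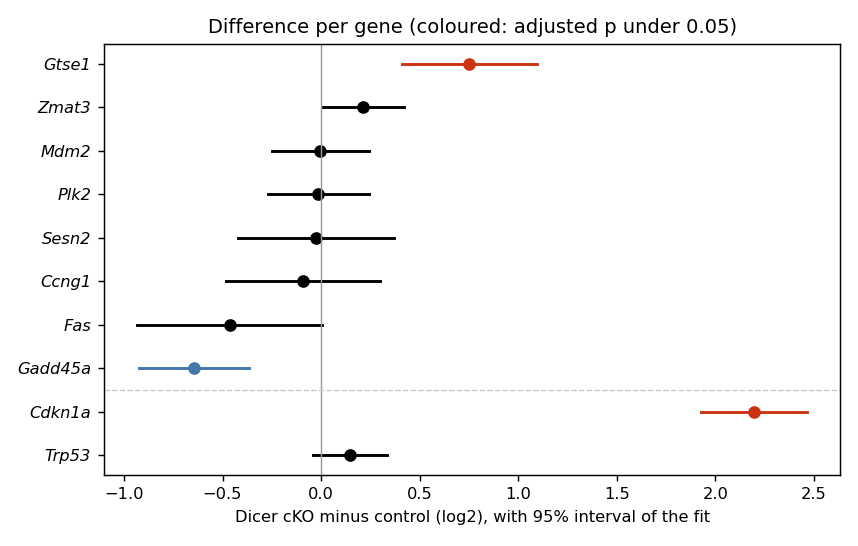
Dicer cKO minus control difference on the log2 scale (horizontal axis) with its 95% interval from limma for the 8 measured members and, under the dashed line, Cdkn1a and Trp53; red marks genes called higher, blue genes called lower and black genes not called. Cdkn1a, at 2.20, lies beyond every interval of the 8 members.

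Cdkn1a, the cell cycle inhibitor gene that is the best known p53 target, stood apart from the members. It read 7.37, 7.18 and 7.05 in control pools 7, 9 and 11, against 9.42 and 9.37 in Dicer cKO pools 10 and 12, a rise of 2.20 ± 0.12 (limma adjusted p = 1.2e-05). Its other probes rose by 1.43 and 1.40 and were called. The 95% interval of Cdkn1a, from 1.93 to 2.46, began above the upper end of the interval of every measured member, of which Gtse1 had the highest at 1.09. A test of the difference between genes was not run.

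Other p53 targets went both ways. Of 46 further targets, Cdkn1a among them, 42 were measured, with 4 called higher, 6 lower and 32 not called. Their median was -0.04, and 23.8% were called against 6.74% of all genes. This share includes Gdf15 and Sfn, which passed the detection filter through the Dicer cKO pools alone. With detection required on all 5 arrays, 40 of the targets were tested, with 2 called higher and 6 lower. Over all genes it was then 372 higher and 514 lower of 13692. Of the arrest and death genes, Pmaip1, which encodes the death-promoting protein Noxa, read 4.95, 5.33 and 5.13 in controls, against 5.87 and 6.06 in Dicer cKO pools. All controls lay below both Dicer cKO pools, and the rise was 0.83 ± 0.15 (limma adjusted p = 0.0113). Leaving out either Dicer cKO pool ended the call, at an adjusted p of 0.0666 for pool 10 and 0.0665 for pool 12. Gdf15, a secreted stress cytokine gene, was detected in both Dicer cKO pools and in no control pool. It was at least 1.47-fold higher, a bound set against the higher of its own signal and the lowest detected signal of each control array, with a fitted difference of 0.88 ± 0.15 (limma adjusted p = 0.0066). Since it passed the detection filter through the Dicer cKO pools alone, it could enter the test only if it was higher there.

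The p53 target that fell most on this list was Dcxr, an enzyme gene of sugar and carbonyl metabolism, from 10.56, 10.48 and 10.22 in controls to 8.96 and 9.06 in Dicer cKO pools (-1.41 ± 0.11, limma adjusted p = 7.2e-05). It kept its call in all 14 alternatives. The other called genes of the list, named after their values were seen, were Sfn, which encodes the mitosis-blocking protein 14-3-3 sigma, and in the lower direction Dram1, Ephx1, Pltp, Cd82 and Crip2, from -0.81 to -0.36. Sfn, like Gdf15, was detected only in the Dicer cKO pools and was at least 1.40-fold higher. Among the death effectors of the list, Bax differed by 0.06 ± 0.11 and Bbc3, the gene of Puma, by -0.18 ± 0.13. Apaf1 differed by 0.32 ± 0.09, with both Dicer cKO pools above all controls (limma adjusted p = 0.0721). Among the targets often read as p53 reporters, Phlda3 differed by -0.02 ± 0.09 and Trp53inp1 by -0.05 ± 0.15. These genes, also named after their values were seen, were not called. The count of called genes rests on single pools: leaving out Dicer cKO pool 10 gave 1 higher and 2 lower, Dicer cKO pool 12 gave 1 and 7, control pool 7 gave 4 and 2, and control pool 9 gave 3 and 3.

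**Figure D4:**
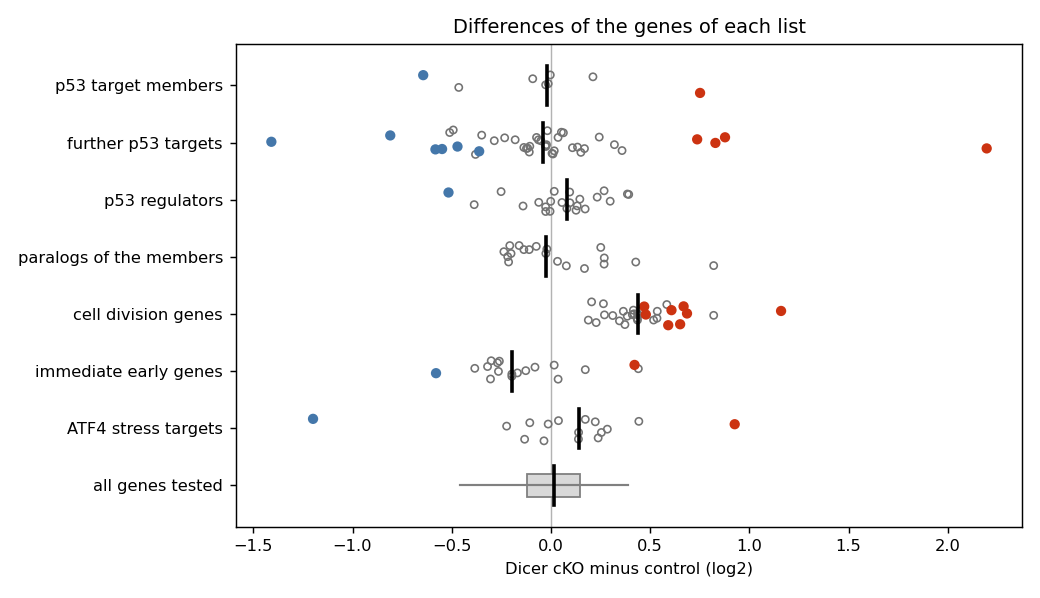
Dicer cKO minus control difference on the log2 scale (horizontal axis) of each measured gene in 7 lists, as filled points where called (red higher, blue lower) and open points where not, with a black bar at the median; the last line gives the median, the middle 50% (box) and the middle 90% (line) of all 15733 genes. The 2 p53 target lists are centred near 0 with called genes on both sides, while the cell division genes all lie above 0. Points are spread vertically for legibility.

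Related genes of the members did not pass the test. Of 21 paralogs and partners, 19 were measured and 0 were called by limma. Further Gadd45, Btg, Tob, sestrin, polo-like kinase and Zmat genes were among the 19, but the Fas ligand was not. Some of the 19 also stood in another list, such as Plk1 among the cell division genes. At an unadjusted p under 0.05, reached by 20.8% of all genes, there were 2 higher and 2 lower. The median of the 19 was -0.03, and over all genes 6.74% were called. Those with the largest moderated t were the polo-like kinase genes Plk4 (0.43 ± 0.14, limma adjusted p = 0.103) and Plk1 (0.82 ± 0.28, 0.122), both of which act in dividing cells. Plk1 read 7.43, 8.26 and 7.57 in controls, against 9.02 and 8.13 in Dicer cKO pools, so control pool 9 lay above Dicer cKO pool 12, and it passed with control pool 9 left out (limma adjusted p = 0.0385) or Dicer cKO pool 12 left out (0.0400).

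Markers of several cell types also differed between the groups. In a whole uterus, fewer cells of a type and less RNA per cell cannot be told apart. Over all genes tested, 53% had a difference above 0 and 6.74% were called. All 5 measured adipocyte markers, of 8, had a difference under 0, 2 of them called lower, and their summed linear signal ran from 2460 to 4660 in control pools and from 877 to 1890 in Dicer cKO pools, while Fabp4, Plin1 and Retn were below detection on every array. Of 13 stromal markers, 12 had a difference under 0, with 4 called lower, and the summed signal ran from 47100 to 49100 against 39100 to 44200. Of 12 measured epithelial markers, 3 were called higher and 5 lower, at 10900 to 14000 against 9250 to 9550. Of 7 measured myeloid markers, of 9, 6 had a difference above 0, and the median was 0.36. Of these 7, 2 were called higher and 1 lower, and the 1 called lower was the brightest of them in control pools. It weighs most in their summed signal, which ran from 2670 to 3000 against 2520 to 3100. Ptprc and Itgam were below detection. Lymphoid markers, which bear on Fas, were measured for 4 of 8, at 289 to 313 against 262 to 304, with Cd4, Cd8a, Cd79a and Ms4a1 below detection. Neither smooth muscle, endothelial nor mesothelial markers held a called gene. With Dicer cKO pool 10 left out, the epithelial calls were 0 higher and 2 lower, the stromal calls 2 lower and the adipocyte calls 0. The epithelial calls were also 1 higher with control pool 9, control pool 11 or Dicer cKO pool 12 left out, the last with 3 lower, and the adipocyte calls were 1 lower without control pool 7 and 3 lower without control pool 9 or Dicer cKO pool 12. The part of these cell types in the differences of Gadd45a, Gtse1 and Fas was not tested.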

How the data were processed

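Per the file headers, each probe had a deposited intensity (the mean over its beads, linear), the SD over beads, the number of beads as other values, and a detection score. BeadStudio is named in the submitters' processing notes, without a version. Array medians of the intensity ran from 57.5 to 63.0, so the deposited arrays were not scaled to a common median; other scaling or background steps by the authors cannot be told from the values. The labels name a human BeadChip, but the probe names match mouse genes. The authors' normalized table was not used, since its rows could not be matched to probes.

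One minus the detection score served as the detection p. With limma 3.58.1 in R 4.3.3, neqc (normexp, offset 16, quantile, log2) was followed by lmFit and eBayes with an intensity trend, no covariate, 2-sided. The filter kept 22845 probes of 15733 genes, those with detection p below 0.05 on 2 or more of the 5 arrays. Further probes come from the same fit over all kept probes, of which 5.87% were called. Permuting 5 pools gives 10 splits and no 2-sided p under 0.1, so none was used. Old names were updated through RefSeq synonyms.

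The p-values measure the spread between pools. No slide or scan data were found, so no batch was tested. In pairs of arrays the squared difference over bead variance had a median from 1.23 to 2.96, against 0.455 for bead error alone, so no file was a copy of another; whether arrays shared an RNA cannot be told from this. The number of arrays limits the precision.

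Members and gene lists were chosen with earlier results of these data known. The text names all members, Dicer1, Pgr, Cdkn1a, Trp53, and of each list up to 4 called genes with the largest difference, or 2 by moderated t where none was called, except where stated; marker genes the rule also named are given by counts. The fit was tested on simulated data.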

Additional observations from a re-analysis of the deposited data

How the results depend on the processing

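With the mean of all probes of a gene, 0 members were called higher and 1 lower. In the other 8 alternatives that kept all pools, 1 was called in each direction, as reported. Leaving out single pools gave 0 to 1 in each direction, and 0 in both without Dicer cKO pool 10. Members near 0 changed sign without a call: Mdm2 (0.042 with the mean of probes, 0.063 without Dicer cKO pool 12, -0.070 to 0.081 over pools left out), Ccng1 (0.084, 0.060, and -0.242 to 0.097), Plk2 (-0.064 to 0.050 over pools left out, 0.014 without Dicer cKO pool 10) and Sesn2 (-0.125 to 0.137, 0.060 without Dicer cKO pool 12). Leaving out control pool 7 alone put Mdm2 at 0.081, Ccng1 at 0.097, Plk2 at 0.050 and Sesn2 at 0.137. The median over the members was then 0.09. Fas, Zmat3, Trp53 and Cdkn1a kept sign and call status in all 14 alternatives. Over all genes, 282 were called higher with median scaling, 286 with no detection filter and 281 with no intensity trend, and with a pool left out 86 to 403 higher and 189 to 553 lower. Further p53 targets called lower numbered 3 with median scaling and 2 with no intensity trend, instead of 6, and those called higher 2 with detection on all arrays, instead of 4. Cell division genes called higher numbered 9 as reported, 3 with no intensity trend, 4 with no detection filter, 5 with the mean of probes and 6 with detection on all arrays. Adipocyte markers called lower numbered 0 with robust spread or no intensity trend and 1 with median scaling or no detection filter, instead of 2, and epithelial markers called higher 1 with median scaling, no detection filter or no intensity trend, instead of 3. The cause was not tested, beyond the fewer pools or more genes tested that some alternatives bring. Signals near background limit Btg2, Perp and Sesn2. They also limit Pmaip1 and Ccne1, whose differences were 0.48 and 0.75 with an offset of 50. The authors' normalized table was not run as an alternative, since its rows could not be matched to probes. No paired analysis was possible because the groups share no pool numbers.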
